A study of Rattus norvegicus with 6 samples.

Results

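The 8 genes Mbp, Pmp22, Mag, Prx, Mal, Pmp2, Cnp and Drp2 encode structural proteins of the myelin sheath. They were chosen by name, with earlier results of these data known. All probe sets annotated to 1 of these symbols were taken. This gave 16 probe sets among 31042 that were tested and 8 genes among 14217. Messenger RNA of primary rat Schwann cells from sciatic nerve was measured on 6 Affymetrix arrays. The cells contained RafER, an inducible form of the kinase Raf joined to the ligand-binding domain of an estrogen receptor, which tamoxifen switches on. In 3 independent experiments, cells in a serum-free defined medium received ethanol vehicle or tamoxifen for 24 h, so each group had 3 arrays. The series text names no pairing in the analysis. Vehicle and tamoxifen arrays with the same number in their titles were taken to share an experiment, and all differences within an experiment rest on this. The sample source names speak of treated rats and the series text of treated cultures, and the series text was followed. The vehicle cells carried RafER too, and cells lacking it were not analysed here. Effects of Raf and of tamoxifen as a drug therefore cannot be told apart. The cultures held no axons as far as the series text describes them, so the levels are those of Schwann cells outside a nerve.

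Schwann cells wrap axons of peripheral nerves and compact their membrane into myelin. Compact myelin is held together by basic and integral membrane proteins, whereas other proteins stay in the uncompacted inner and outer rims, where the sheath meets the axon and the basal lamina. The transcription factors Egr2 and Sox10 drive many of these genes in the nerve, and sustained signalling from Raf through ERK is known to take Schwann cells away from the myelinating state.

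Values are log2 expression per probe set as made by RMA, so 1 unit is a doubling. The file holds no detection calls, and a low value can be background. Brightness of a probe set depends on its probes as well as on its transcript, so levels are not used to say which gene was more abundant. The vehicle array of experiment 1 stood apart in RNA quality: the mean 3' minus 5' difference over 3 control transcripts was 0.84 log2 units there and 0.16 to 0.27 on the other 5 arrays. The Schwann cell markers S100b, Sox10 and Ngfr were high in both groups. Their vehicle means were 13.11, 11.58 and 12.99, and their tamoxifen means 12.35, 10.68 and 11.46. All 9 measured Schwann cell markers had mean levels above the median of all probe sets. The lowest was Gfap, at 7.29 in vehicle and 7.06 after tamoxifen. By the test described below, with the probe set of highest mean for each gene, 17.3% of all genes fell and 13.9% rose. The marker counts here are to be read beside these shares. Of 9 measured Schwann cell markers, 0 rose and 2 fell (S100b and Ngfr). Their mean log2 level ran from 10.30 to 10.48 on the vehicle arrays and from 9.52 to 9.88 on the tamoxifen arrays. Of 10 oligodendrocyte markers, the genes of the other myelin-forming cell, 9 had mean levels below the median of all probe sets. The exception was Myrf, at 9.66 in vehicle and 7.04 after tamoxifen. The mean log2 level of the oligodendrocyte markers was 5.28 to 5.39 on the vehicle arrays and 4.92 to 5.02 on the tamoxifen arrays. Their median difference was -0.07, with 3 of 10 lower (Myrf, Mog and Nkx2-2). All 13 macrophage markers and all 8 measured endothelial markers lay below that median, with 0 of either list past the threshold. Of 10 fibroblast markers 2 rose and 3 fell, and 5 lay below that median. Their vehicle means ran from 3.44 (Lum) and 4.05 (Dcn) to 13.15 (Col1a1), 13.19 (Postn) and 13.26 (Col1a2). Their mean log2 level was 7.62 to 7.73 on the vehicle arrays and 7.52 to 7.64 on the tamoxifen arrays. The part of these shifts in the results below was not tested. In such bulk cultures, fewer cells of a type and less RNA per cell cannot be told apart.

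After tamoxifen, transcripts of 4 of the 8 myelin proteins were lower (Mbp, Pmp22, Pmp2 and Cnp), and none was higher. By probe set, 8 of 16 were lower (50%), against 12.9% of all probe sets in the same test, and 0 were higher, against 11.5%. The test was limma's moderated test, with Benjamini-Hochberg adjustment over all probe sets and a threshold of 0.05. All probe sets of these 4 genes passed. The median difference of the 16 probe sets was -0.96 log2 units, beside 0.03 over all probe sets. The other 4 genes, Mag, Prx, Mal and Drp2, had no probe set past the threshold. The count of lower probe sets was 5 without vehicle array 2, tamoxifen array 1 or tamoxifen array 2. It was 6 without vehicle array 3 or tamoxifen array 3, and 7 without vehicle array 1.

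**Figure D1:**
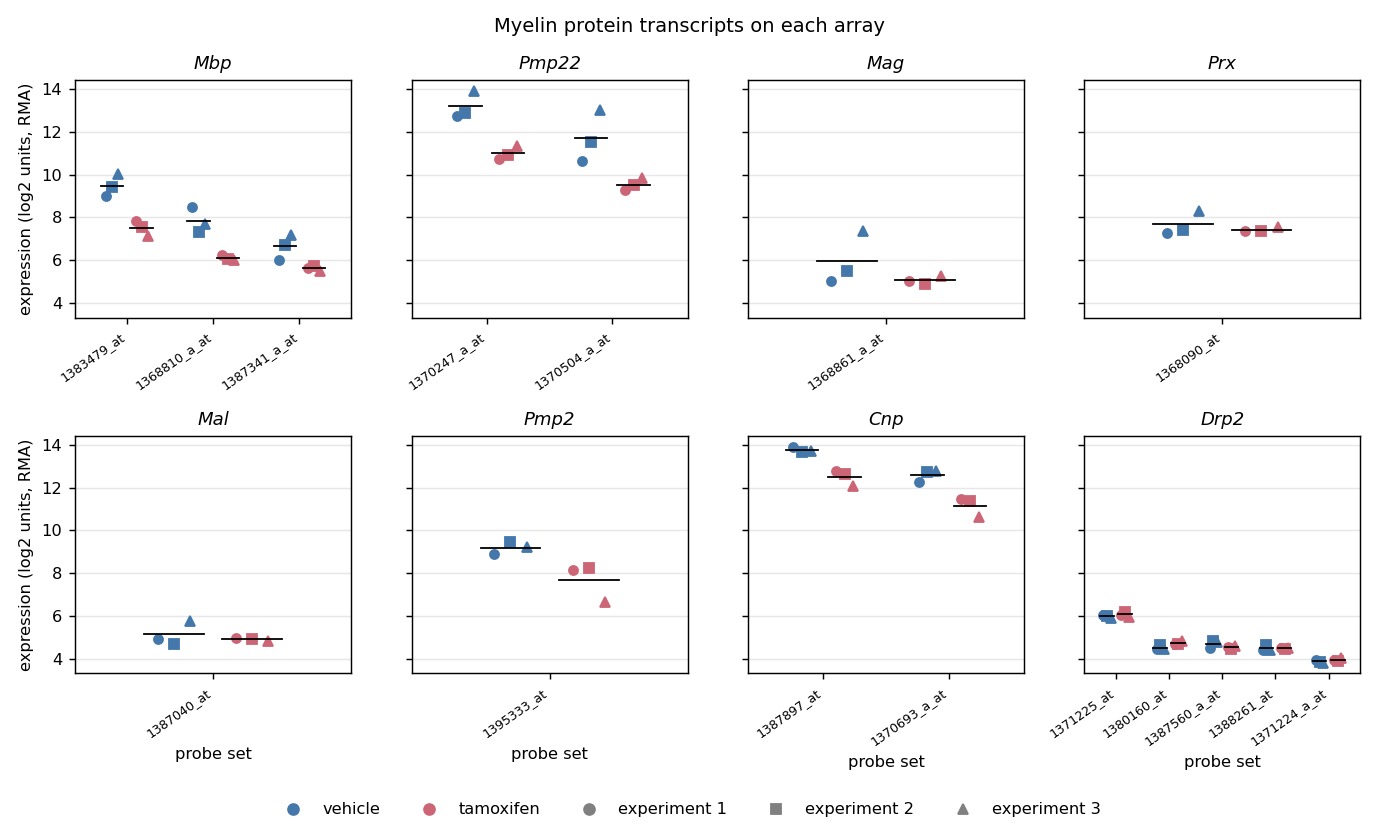
Log2 expression (y axis, RMA values) of every probe set (x axis) of the 8 myelin protein genes, 1 panel per gene. Blue points are vehicle and red points tamoxifen arrays, symbols mark the experiment and black lines the group means; the groups are apart for Mbp, Pmp22, Pmp2 and Cnp, and for Mag, Prx and Mal the vehicle array of experiment 3 lies above the other 5 arrays.

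Pmp22, peripheral myelin protein 22, is an integral membrane protein of compact myelin whose gene dosage is known to decide whether peripheral myelin is stable. By probe set 1370247_a_at its levels were 12.74, 12.87 and 13.92 on vehicle arrays 1 to 3, and 10.71, 10.93 and 11.34 on tamoxifen arrays 1 to 3. The lowest vehicle array stood above the highest tamoxifen array, and the array of experiment 3 was the highest within each group. The mean went from 13.18 ± 0.65 to 11.0 ± 0.32 (SD, n = 3 arrays per group). This was a difference of -2.18 ± 0.33 log2 units (SE; limma, adjusted p = 0.00481), a 4.54-fold lower level. The second probe set, 1370504_a_at, had vehicle values of 10.61, 11.51 and 13.01 and tamoxifen values of 9.26, 9.49 and 9.83. Its vehicle arrays were spread widely (SD 1.21) and its tamoxifen arrays closely (SD 0.29), again with no overlap. The difference had the same size, -2.18, with a larger error of 0.56 (adjusted p = 0.0313 in limma). With vehicle array 2 left out that second call was lost (adjusted p = 0.0681), as it was with tamoxifen array 1 (0.0938), 2 (0.0945) or 3 (0.0703) left out. The first held in each of these.

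Mbp, myelin basic protein, lies on the inner face of the membrane and joins the cytoplasmic sides of compact myelin. The brightest of its 3 probe sets, 1383479_at, read 8.98, 9.40 and 10.02 in vehicle and 7.85, 7.55 and 7.13 after tamoxifen. Vehicle and tamoxifen arrays did not overlap, and experiment 3 had both the highest vehicle and the lowest tamoxifen value. The difference was -1.96 ± 0.29 (limma, adjusted p = 0.00467), a 3.88-fold lower level. Probe set 1368810_a_at read 8.50, 7.34 and 7.68 in vehicle and 6.26, 6.07 and 5.99 after tamoxifen. Here the vehicle array of experiment 1 was the highest, while it was the lowest vehicle array for the other 2 probe sets of Mbp, so the probe sets did not rank the vehicle arrays alike. The difference of 1368810_a_at was -1.74 ± 0.28 (adjusted p = 0.00617).

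The dimmest Mbp probe set, 1387341_a_at, read 6.03, 6.73 and 7.19 in vehicle and 5.65, 5.74 and 5.49 after tamoxifen. Its groups were also apart, by less than those of the brighter probe sets. The difference was -1.02 ± 0.28 (adjusted p = 0.0381 in limma). Leaving out vehicle array 2 (adjusted p = 0.1) or 3 (0.0651) ended the call, and so did leaving out tamoxifen array 1 (0.0928), 2 (0.0906) or 3 (0.118). Probe sets whose names end in _a_at are designed to match several transcripts of a gene, and RefSeq lists 2 starts for Mbp. Which transcripts each probe set reads was not tested.

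Pmp2 encodes a fatty-acid-binding protein of the cytoplasmic side of peripheral compact myelin. Its single probe set, 1395333_at, read 8.90, 9.44 and 9.22 in vehicle and 8.14, 8.25 and 6.65 after tamoxifen. The tamoxifen array of experiment 3 was more than 1 log2 unit below the other tamoxifen arrays, and the groups did not overlap. The mean went from 9.19 ± 0.27 to 7.68 ± 0.89, a difference of -1.51 ± 0.42 (limma, adjusted p = 0.0430). Of the 4 genes that were lower, Pmp2 was the one whose single probe set lay closest to the threshold. The call ended when vehicle array 1 (adjusted p = 0.0562), 2 (0.117) or 3 (0.0993) was left out, and when tamoxifen array 1 (0.0555) or 2 (0.0501) was. Leaving out 1 array moved the difference between -1.79 and -0.99, and the value nearest 0 was that without tamoxifen array 3. Without both arrays of experiment 1 the difference was -1.88 (adjusted p = 0.0688).

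Cnp encodes a nucleotide phosphodiesterase bound to the membrane of uncompacted myelin, and it is known to be made by Schwann cells before they myelinate. Probe set 1387897_at read 13.88, 13.65 and 13.70 in vehicle and 12.75, 12.63 and 12.07 after tamoxifen. The vehicle arrays were close together (SD 0.12) and stood above all tamoxifen arrays. The difference was -1.26 ± 0.18 (limma, adjusted p = 0.00428), a 2.40-fold lower level. The second probe set, 1370693_a_at, went from 12.28, 12.74 and 12.79 to 11.47, 11.38 and 10.61, a difference of -1.45 ± 0.26 (adjusted p = 0.00837). Both calls held when any single array was left out, with adjusted p of 0.00429 to 0.0163 and of 0.00961 to 0.0306. RMA compresses low values, so the folds of dim probe sets can be understated.

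The promoters of Pmp22 and Cnp are shown because both genes fell by 2 probe sets each, and each has 1 start in the table of RefSeq promoters. The 250 bases before the start (RefSeq, build GRCr8, plus strand for both) are chr10:48294682-48294931 for Pmp22 and chr10:86011254-86011503 for Cnp. Capitals mark matches to any of 4 searched motifs, as described after the sequences.
Pmp22: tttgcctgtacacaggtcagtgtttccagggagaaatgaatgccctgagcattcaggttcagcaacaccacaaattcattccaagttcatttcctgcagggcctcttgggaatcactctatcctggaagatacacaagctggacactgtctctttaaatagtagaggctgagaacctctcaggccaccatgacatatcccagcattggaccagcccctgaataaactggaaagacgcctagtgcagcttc
Cnp: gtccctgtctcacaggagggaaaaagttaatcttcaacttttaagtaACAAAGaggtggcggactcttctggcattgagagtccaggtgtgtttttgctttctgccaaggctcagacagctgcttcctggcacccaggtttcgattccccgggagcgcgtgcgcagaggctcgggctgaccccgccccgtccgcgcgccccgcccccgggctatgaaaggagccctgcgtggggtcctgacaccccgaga

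The motifs were searched on both strands of the 250 upstream bases of 33469 RefSeq windows: GCGNGGGCG for EGR factors, ACAANG for SOX factors, CCGGAA for ETS factors and TGANTCA for AP-1. A match was present in 4.29%, 36.9%, 12.6% and 6.34% of windows, in that order. Of the 8 members, 7 had a window, and Mbp and Drp2 had 2 each. No member window held the EGR or the ETS letters. Cnp held 1 SOX match, 203 bases before the start. Mag held 2 SOX matches, at 162 and 152 bases, and the second of the Mbp windows held 3. Pmp22, Prx, Drp2 and the first Mbp window held none of the 4, and Mal held 1 AP-1 match. These letters describe the windows only, and binding was not measured.

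Mag, Prx and Mal shared a pattern in which the vehicle array of experiment 3 was the highest. Mag, the myelin-associated glycoprotein, is an adhesion molecule of the inner rim that faces the axon. It read 5.04, 5.48 and 7.37 in vehicle and 5.02, 4.91 and 5.28 after tamoxifen. Only the vehicle array of experiment 3 stood above 5.48, and vehicle array 1 lay within the range of the tamoxifen arrays. The difference was -0.90 ± 0.56, with a 95% interval of -2.24 to 0.45 (limma, adjusted p = 0.313). It was -0.19 without vehicle array 3.

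Prx, periaxin, is a scaffold protein of the outer rim that links the sheath to the basal lamina through Drp2. It read 7.29, 7.43 and 8.32 in vehicle and 7.37, 7.37 and 7.53 after tamoxifen. Apart from vehicle array 3, all arrays lay between 7.29 and 7.53. The difference was -0.25 (interval -0.88 to 0.37; adjusted p = 0.551), and 0.07 without vehicle array 3. Mal, a small membrane protein that sorts lipids and proteins to myelin, read 4.95, 4.71 and 5.78 in vehicle and 4.98, 4.94 and 4.86 after tamoxifen. Its difference was -0.22 (interval -0.84 to 0.40; adjusted p = 0.610), and 0.10 without vehicle array 3. For these 3 genes the tamoxifen arrays were close together, with SDs of 0.19 for Mag, 0.09 for Prx and 0.06 for Mal, against 1.24, 0.56 and 0.56 in vehicle. The intervals leave room for a fall of more than 0.8 log2 units in each.

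Drp2, dystrophin-related protein 2, joins periaxin to the dystroglycan complex of the outer membrane. Its 5 probe sets were dim, with mean vehicle levels of 3.88 to 5.98, while the median of all probe sets was between 6.30 and 6.37 on each array. By the brightest, 1371225_at, the values were 6.05, 6.0 and 5.90 in vehicle and 6.07, 6.19 and 5.98 after tamoxifen. These overlapped, and the difference was 0.10 (interval -0.12 to 0.32; limma, adjusted p = 0.510). The differences of the other 4 probe sets ran from -0.17 to 0.23, with none past the threshold. For 1380160_at the groups did not overlap: 4.46, 4.65 and 4.45 in vehicle against 4.70, 4.71 and 4.85 after tamoxifen (difference 0.23; adjusted p = 0.138). Such a separation in the higher direction was found for 22.2% of all probe sets. The sign of the difference of 1388261_at, 0.02, turned to -0.02 with median centring.

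**Figure D2:**
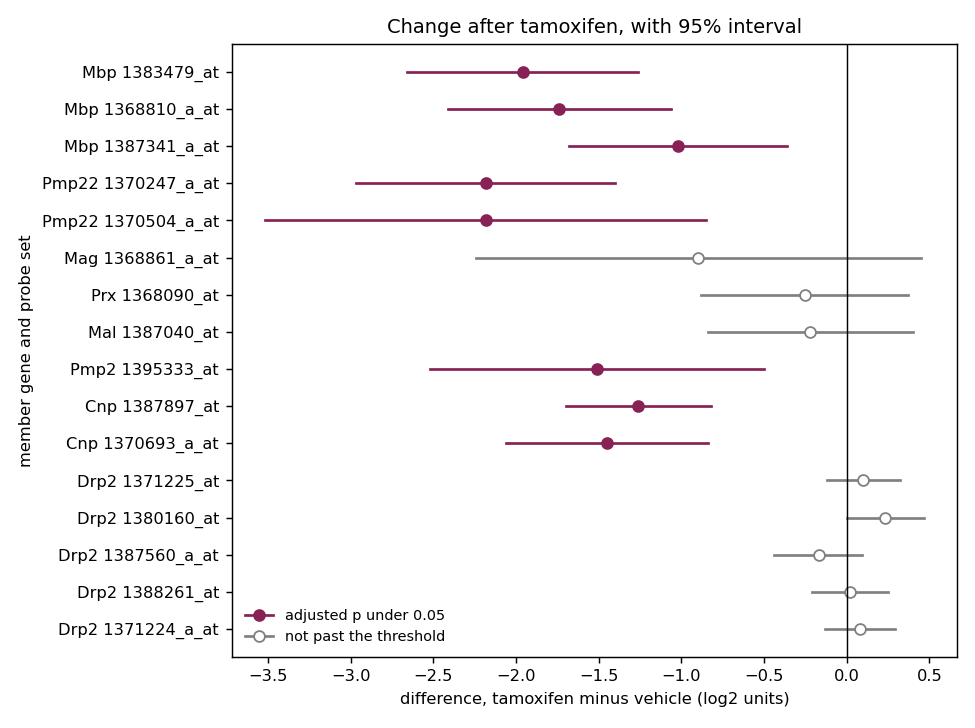
Difference between tamoxifen and vehicle (x axis, log2 units) for each of the 16 probe sets (y axis), with the 95% interval of limma's model as a line. Filled points passed an adjusted p of 0.05; they lie between -2.18 (Pmp22) and -1.02 (Mbp 1387341_a_at), and the 5 Drp2 probe sets lie between -0.17 and 0.23.

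Across the 16 probe sets, the groups were apart in the lower direction for 8, the same 8 that passed the test, against 20.2% of all probe sets. The tamoxifen minus vehicle difference was negative in all 3 experiments for 9 of the 16 (56.2%), beside 27.1% of all probe sets. The ninth was Mag, with differences of -0.02, -0.57 and -2.09 in experiments 1 to 3. Experiment 3 gave the most negative difference for 10 of the 16 probe sets (62.5%), beside 30.8% of all probe sets. For the second Pmp22 probe set, 1370504_a_at, the differences were -1.36, -2.02 and -3.18 in experiments 1 to 3. For Pmp2 they were -0.75, -1.19 and -2.57, and for the brightest Mbp probe set -1.13, -1.84 and -2.89. The vehicle array of experiment 3 was the highest of all 6 arrays for 8 of the 16 probe sets (50%), beside 14.2% of all probe sets. These 8 were both Pmp22 probe sets, 2 of Mbp, 1 of Cnp, and those of Mag, Prx and Mal. Probe sets of a gene share their transcripts and all 16 share the arrays, so these shares are descriptions.

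**Figure D3:**
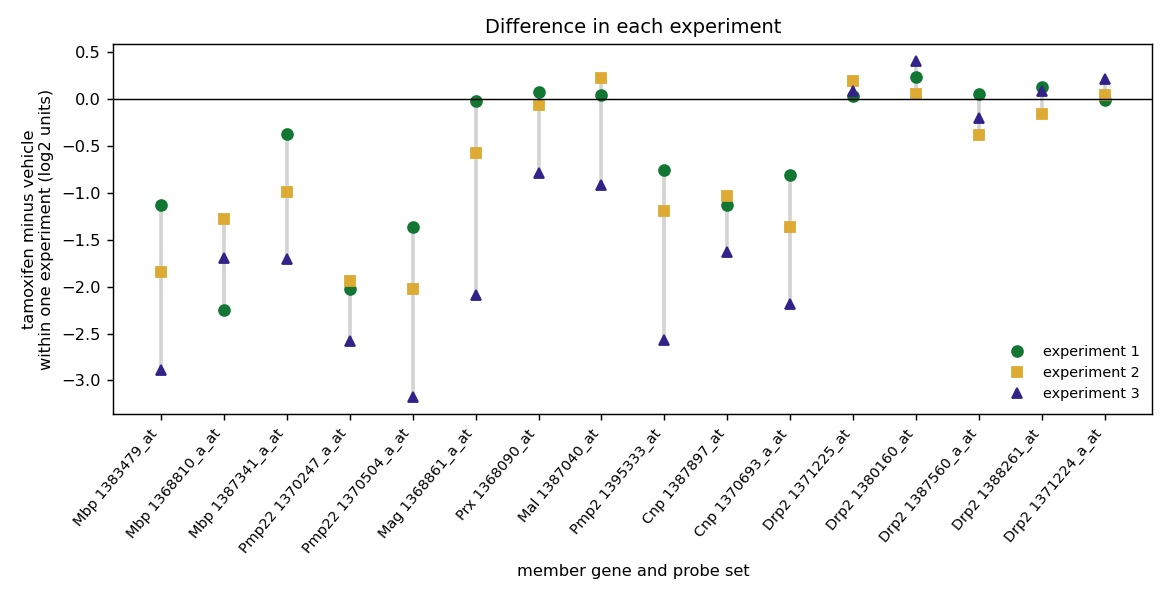
Tamoxifen minus vehicle difference within each experiment (y axis, log2 units) for the 16 probe sets (x axis); circles, squares and triangles are experiments 1, 2 and 3. Experiment 3 (triangles) is the most negative for 10 of the 16, with -3.18 for Pmp22 1370504_a_at and -2.09 for Mag.

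Genes that act with these proteins were described from 5 lists, using the brightest probe set of each gene. Of all genes, 17.3% were lower and 13.9% higher by the same test. Of 15 measured other myelin sheath proteins, 5 were lower and 2 higher, with a median of 0.03, beside 0.01 over all genes. Epb41l3, a cytoskeletal adaptor of the paranodal and internodal membrane, read 10.11, 10.44 and 11.33 in vehicle and 8.97, 9.0 and 9.09 after tamoxifen. It fell by 1.60 ± 0.29 (limma, adjusted p = 0.00912), and its second probe set fell by 1.86. The related Epb41l2 fell by 1.36 ± 0.16 (adjusted p = 0.00202), with -1.18 by its second probe set. Pals2, a scaffold of the uncompacted membrane, moved the other way: 7.71, 8.53 and 8.55 in vehicle became 9.38, 9.65 and 9.93. It rose by 1.39 ± 0.26 (adjusted p = 0.00989), and its 4 other probe sets also rose, by 0.51 to 1.25.

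Periaxin is joined through Drp2 to dystroglycan, the laminin receptor of the outer Schwann cell membrane. Of 13 measured genes of this complex and its partners, 5 were lower (Sgcb, Sspn, Lamb1, Itgb4 and Agrn) and 0 higher, with a median of -0.91. The number lower was 3 without vehicle array 3 or without tamoxifen array 2, and 1 was higher without vehicle array 1 or 3. Blocked by experiment, 7 were lower and 1 higher. With the filter on dim probe sets, with eBayes with trend and robust or with array weights, 8 were lower and 1 higher. By the mean of each gene's probe sets 7 were lower and 2 higher. Dimmer probe sets of Dtna (1.21 and 0.68) and Itga6 (0.45 and 1.07) passed as higher, while the brightest ones of both did not pass. Itgb4, a laminin-binding integrin subunit of myelinating Schwann cells, read 7.63, 7.88 and 9.02 in vehicle and 5.36, 5.97 and 5.79 after tamoxifen. It fell by 2.47 ± 0.37 (limma, adjusted p = 0.00447). Vehicle array 3 was again the highest.

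Sspn, the sarcospan gene, fell by 2.43 ± 0.42 (limma, adjusted p = 0.00741) by its brightest probe set. Of its other probe sets 1 also fell, by 1.93, and 3 did not pass (-1.32, -1.21 and 0.23). Sgcb, a sarcoglycan, fell by 1.48 ± 0.24 (adjusted p = 0.00628); its other probe sets gave -1.43, which passed, and -0.93, which did not. Dag1, dystroglycan itself, read 13.35, 12.42 and 12.68 in vehicle and 12.34, 11.67 and 11.79 after tamoxifen. The groups were narrowly apart and the difference of -0.88 ± 0.28 did not pass (adjusted p = 0.0615), while in the fit blocked by experiment it passed (adjusted p = 0.00379). It also passed without vehicle array 2 (0.0478), without tamoxifen array 1 (0.0481), without both arrays of experiment 1 (0.0187), with the filter on dim probe sets (0.0398) and with eBayes with trend and robust (0.0464). The other 3 probe sets of Dag1 gave -0.56, 0.36 and -0.07, none past the threshold. For those at 0.36 and -0.07 the difference was positive in experiment 1 (2.04 and 0.85). It was negative in experiment 2 (-0.85 and -0.86) and in experiment 3 (-0.12 and -0.20). The part of RNA quality in this was not tested.

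**Figure D4:**
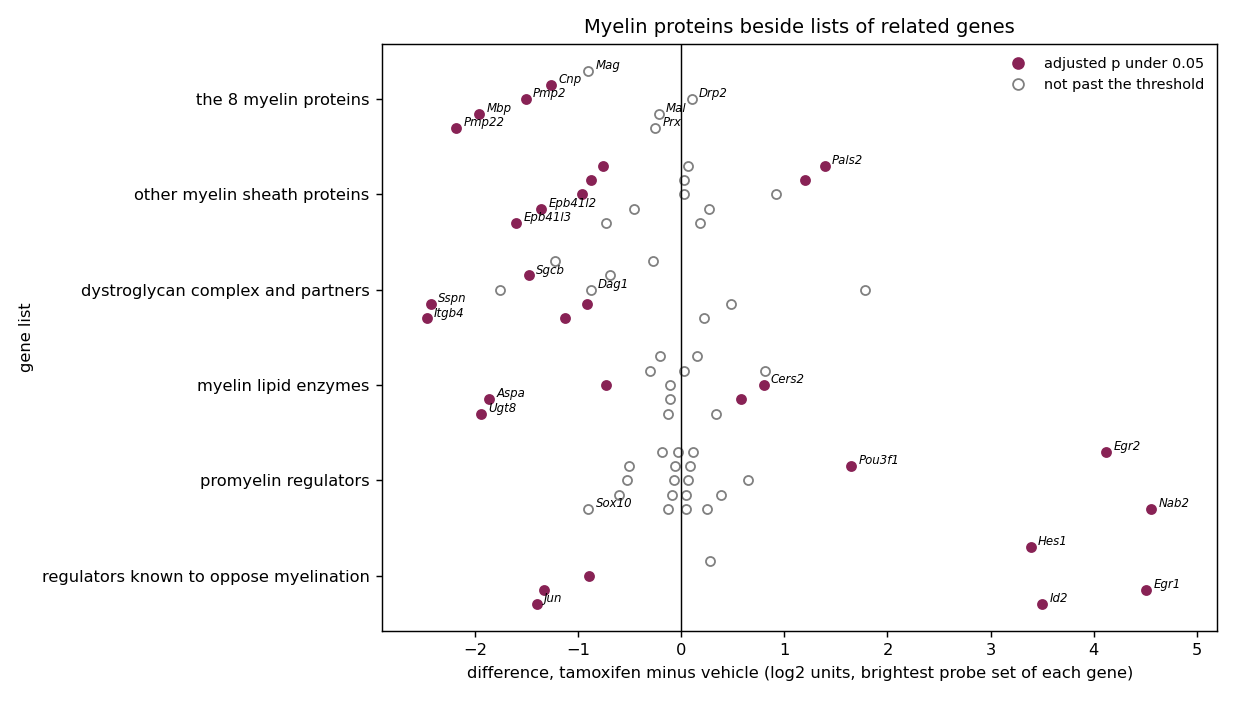
Difference between tamoxifen and vehicle (x axis, log2 units, brightest probe set of each gene) for the 8 myelin proteins and the genes of 5 related lists (y axis; vertical offsets within a list only separate points). Filled points passed an adjusted p of 0.05; Pmp22 and Mbp lie near -2, Itgb4 and Sspn at -2.47 and -2.43, and Egr2 and Nab2 at 4.12 and 4.56.

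Myelin lipids are made by a set of enzymes that work beside the proteins. Of 14 measured, 3 were lower, 2 were higher and 9 did not pass, with a median of -0.11. The number higher was 1 without vehicle array 1 or 2 or without tamoxifen array 1 or 3. Ugt8, which makes galactosylceramide, the main glycolipid of myelin, read 8.82, 9.48 and 10.06 in vehicle and 7.76, 7.82 and 6.96 after tamoxifen. It fell by 1.94 ± 0.36 (limma, adjusted p = 0.00989), with a dim second probe set at 0.02 (adjusted p = 0.925). Aspa, which frees acetate from N-acetylaspartate, fell by 1.86 ± 0.35 (adjusted p = 0.0104), a call lost without both arrays of experiment 1 (adjusted p = 0.0541). Cers2, the ceramide synthase of very long fatty acids, rose by 0.80 ± 0.08 (adjusted p = 0.00122).

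Among 21 measured promyelin regulators, 3 were higher, 0 were lower and 18 did not pass. Blocked by experiment, 3 were lower, Sox10 among them. The number lower was 1 without vehicle array 1 or 2. By the mean of each gene's probe sets 2 were lower and 4 higher. Dimmer probe sets of Hdac1 (-0.76) and Nfatc4 (-0.38) passed as lower, and those of Smarca4 (1.15 and 0.72) as higher. The brightest ones of these genes did not pass. Egr2 read 5.77, 6.01 and 5.86 in vehicle and 9.69, 10.12 and 10.18 after tamoxifen. It rose by 4.12 ± 0.15 (adjusted p = 4.3e-05), on the same arrays on which its known target genes Mbp and Pmp22 were lower. The dimmer second probe set of Egr2 rose by 1.66 (adjusted p = 0.000371 in limma). Nab2, a cofactor that binds Egr proteins, read 6.21 to 6.47 in vehicle and 10.79 to 11.08 after tamoxifen, a rise of 4.56 ± 0.12. Pou3f1, a POU factor of promyelinating Schwann cells, rose by 1.65 ± 0.28 (adjusted p = 0.00692), from 8.84, 7.68 and 8.09 to 9.85, 9.76 and 9.95. Sox10 read 12.41, 11.09 and 11.26 in vehicle and 10.91, 10.59 and 10.54 after tamoxifen. Its difference of -0.90 ± 0.34 did not pass (adjusted p = 0.104). In the fit blocked by experiment it passed (adjusted p = 0.0300), as it did without both arrays of experiment 1 (difference -0.61, adjusted p = 0.0257).

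Of 7 measured regulators that are known to oppose myelination, 3 were higher (Egr1, Id2 and Hes1), 3 were lower (Jun, Sox2 and Notch1) and 1 did not pass. Sox2 passed by its brightest probe set (-0.89, adjusted p = 0.0108 in limma). Its other probe sets gave -0.32, -0.57 and 0.04, none past the threshold. By the mean of each gene's probe sets 2 of the list were lower and 3 higher. Hes1, a transcriptional repressor downstream of Notch, read 5.84, 6.57 and 8.0 in vehicle and 10.19, 10.16 and 10.25 after tamoxifen, a rise of 3.39 ± 0.50 (limma, adjusted p = 0.00427). Its vehicle level was also highest in experiment 3, as for 8 of the myelin probe sets. Id2, an inhibitor of basic helix-loop-helix factors, rose by 3.50 ± 0.18 and Egr1 by 4.51 ± 0.33. Jun read 13.92, 13.85 and 13.72 in vehicle and 13.04, 12.65 and 11.61 after tamoxifen. It fell by 1.40 ± 0.34 (adjusted p = 0.0266), with its other probe sets at -1.36 and -1.14. That call ended when any one of the vehicle arrays was left out (adjusted p = 0.0587, 0.0715 and 0.0582 for arrays 1 to 3). It also ended without tamoxifen array 2 (0.0625) or with a covariate for RNA quality (0.0690).

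The genes closest to each lower myelin gene were found over the 6 arrays, as the smallest root mean square difference after subtraction of the vehicle mean, among the brightest probe sets of 14217 genes. For Mbp the nearest was Ugt8, at 0.16 log2 units, followed by Fam177a1 at 0.19. For Pmp22 they were Steap2 (0.22) and Ddah2 (0.23), and for Pmp2 they were Crot (0.22) and Kif22 (0.23). For Cnp they were Sqstm1 and 2610008E11Rikl, both at 0.07. The values were not scaled, so these distances depend on the size of the fall as well as on its shape over 6 arrays in 2 groups. They are descriptions.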

How the data were processed

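The deposited values are log2 expression per probe set (2.99 to 14.58), made with RMA per the submitters' processing notes. RMA corrects background, normalizes between arrays and summarizes probes. Of 31099 probe sets, 57 manufacturer controls were left out. Of the rest, 20826 had 1 gene symbol in the platform annotation, 436 had several and were not named, and 9780 had none. No genome was used; promoter windows are from RefSeq (GRCr8).

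The 2 groups were compared in limma 3.58.1 (lmFit and eBayes, R 4.3.3) with treatment as the only term. Two-sided p-values were adjusted by Benjamini-Hochberg over 31042 probe sets. The p-values set each group difference against the spread between these samples within the groups, which limma moderates over all probe sets. With 3 arrays per group, exact permutation p-values cannot go below 0.1 and were not used. List genes were represented by their probe set of highest mean. Named list genes are up to 3 per list past the threshold with the largest change, plus Egr2, Sox10, Pou3f1, Jun and Dag1. Other list genes were named where a count is small or probe sets disagree. These were Lamb1, Agrn, Sox2, Notch1, Dtna, Itga6, Hdac1, Nfatc4 and Smarca4, and they were chosen after their values were seen. The members and lists were chosen with earlier results of these data known. Neuron and smooth muscle and pericyte markers were also listed: of 9 neuron markers 1 fell (Tubb3) and 0 rose, and of 8 smooth muscle and pericyte markers 0 passed.

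After subtraction of group means, arrays with the same experiment number correlated at 0.262, 0.198 and 0.279. Values for arrays with unlike numbers are not given here, so these correlations do not decide the pairing by themselves. The numbers, which come from the sample titles, were taken to pair the arrays, and the blocked fit was run beside the unblocked one. Arrays were also left out, rescaled (median, quantile, cyclic loess) or weighted. A dim filter (above the median of all values on at least 3 arrays), eBayes with trend and robust, a minimum fold of 1.5 and a covariate for RNA quality were tried too. The fit was also run on simulated data in which 200 of 31042 probe sets changed. There 10% of changes of 0.5 log2 units, 61% of changes of 1 and 91% of changes of 2 were recovered. Of the probe sets called in the simulations, 5.64% were unchanged ones. In the measured data 4004 probe sets were lower and 3574 higher, far more than 200, so the adjustment was stricter in the simulations. Their recovery shares therefore do not carry over to this comparison. The number of arrays limits the precision.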

Additional observations from a re-analysis of the deposited data

How the results depend on the processing

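All 8 lower myelin probe sets kept a negative difference under each of the 16 alternatives that gave a value, and 103 of their 127 values passed the threshold. None of the 121 values of the other 8 probe sets passed. With the replicate block the count of lower members was 8 and that of higher members 0, and no call of a member changed. Among the 18 named list genes the block changed only the calls of Dag1 and Sox10, given above. These 18 leave out the genes that were chosen after their values were seen. Leaving out 1 array gave 5 to 7 lower members, 2668 to 3771 lower probe sets in all, and 13 to 19 lower list genes. Against a minimum fold of 1.5, 2 members were lower (Mbp by 1383479_at and Pmp22 by 1370247_a_at), 615 probe sets were lower and 833 higher in all, and 3 list genes were lower and 6 higher. Pmp2 also missed the threshold after quantile normalization (adjusted p = 0.0536), cyclic loess (0.0563) and with the 3' minus 5' covariate (0.0616). Leaving out 1 array moved the difference of Prx from -0.45 to 0.07 and that of Mal from -0.44 to 0.10, with the positive values without vehicle array 3. That of Drp2 1388261_at turned to -0.03 without vehicle array 1, -0.01 without vehicle array 3, -0.04 without both arrays of experiment 1, -0.02 with median centring, cyclic loess or array weights, -0.03 with quantile normalization and -0.04 with the covariate. The cause of these changes was not tested. Dim probe sets such as those of Drp2, Mal and Mag limit what can be seen, since no detection calls were used here.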
